A study of Homo sapiens with 14 samples.

Results

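The 371 m6A sites described here are those of the library that were covered by 3, 4 or 5 sgRNAs. A site was identified by the ID of its sgRNAs without the final dot and number, and sites with at least 3 sgRNAs were kept, a rule that uses the IDs alone and no measured value. They held 1169 of the 7999 m6A-targeting sgRNAs (14.6%) and made up 371 of 6027 site IDs (6.16%), whereas 4482 site IDs had 1 sgRNA and 1174 had 2. Both screens of the study used the same library of 9077 sgRNAs, which also held 1000 non-targeting sgRNAs. In the proliferation screen, A549 cells, a lung carcinoma line, carried FNLS-BE3, a cytosine base editor. They were sampled once at day 0, after selection for the sgRNA, and in 2 libraries at each of days 10, 20 and 30. In the differentiation screen, H1 human embryonic stem cells carried FNLS-ABE7.10(AW), an adenine base editor. They were driven towards definitive endoderm, and the cells with the lowest and the highest CXCR4 at the surface were sorted as CXCR4- and CXCR4+ in 3 independent screens. Every group of a screen therefore carried the editor and the library, and no group without an editor was analysed here. The H1 line was used as a whole infected population rather than a clone, and what either editor changed at these sites was not measured in the tables. The question put to these sites was whether several sgRNAs aimed at 1 methylated adenosine moved together, which a site with a single sgRNA cannot answer.

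N6-methyladenosine is a mark on RNA that a methyltransferase complex places on the adenosine of a short motif, in which the adenosine is followed by C, and that reader proteins bind to change the stability or translation of the RNA. A base editor is a nickase form of Cas9 fused to a deaminase. It changes a base inside a short window of the DNA that the sgRNA selects, so that an adenine base editor can turn the adenosine of a site into G, while a cytosine base editor acts on C. CXCR4, a chemokine receptor, is a surface marker of definitive endoderm. An sgRNA that is depleted from CXCR4+ cells or lost from a growing culture can therefore report on the change it makes. That change need not act through the methylation of the RNA. Abundance can also shift without a change at a site, since non-targeting sgRNAs passed the same limits, as given below. The sgRNAs were designed by moving the editing window along the site base by base. Those of a site thus share their target and overlap in sequence, and they were not treated as replicates.

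Of the 371 sites, 320 had 3 sgRNAs, 46 had 4 and 5 had 5. The last number of an sgRNA ID ran from 4 to 8, with 180, 260, 319, 243 and 167 sgRNAs at the respective numbers. What the number stands for is not stated in the tables. Among the sites with 3 sgRNAs, 268 held 3 consecutive numbers, namely 4, 5 and 6 at 99 sites, 5, 6 and 7 at 81, and 6, 7 and 8 at 88. The remainder held 4, 5 and 8 (29 sites) or 4, 7 and 8 (23 sites). By the motif letters of the ID, 279 sites (75.2%) were GAC and 92 (24.8%) were AAC. GAC was the more frequent motif among the other 5656 sites too, at 69.0%. Genes, positions and sgRNA sequences stand beside no ID in the tables, so sites are given by ID and no gene is named.

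Depth was similar between libraries, with 14925937 to 16457222 inferred reads per library in A549 and 8076271 to 11341078 in H1. The deposited values, normalized read counts, had medians of 1503 to 1525 per library over the 1169 sgRNAs in A549 and of 910.1 to 920.8 in H1. All sgRNAs of the 371 sites were used in A549. In H1, 7 sgRNAs of 7 sites were below a mean of 200 in 1 of the populations and were left out where single sgRNAs were tested, which left 1162. Changes are given as the log2 fold change (LFC) after adding 1 to each value, of CXCR4+ over CXCR4- within a screen or of a later day over day 0. The LFC of a site is the mean over its sgRNAs, including those of low counts. As background, the non-targeting sgRNAs were put into 333 groups of 3, 250 groups of 4 and 200 groups of 5 in the order of the number in their ID.

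In the H1 screen, the spread of the sites was close to that of groups of non-targeting sgRNAs of like size, a little wider for 3 and 5 sgRNAs and narrower for 4. The median LFC over the 3 screens had an SD of 0.22 over the 320 sites with 3 sgRNAs, against 0.20 for the 333 non-targeting groups of 3. Over the 46 sites with 4 sgRNAs it was 0.14, against 0.17 for the groups of 4, and over the 5 sites with 5 sgRNAs 0.17, against 0.14. The SD over the sites with 3 sgRNAs includes 2bc14505_GAC_6, the lowest of them at -1.46, while the lowest non-targeting group of 3 was at -0.76. The SD without that site is not given here. These differences in spread were not tested. Sites with 2 sgRNAs, just outside the selection, had an SD of 0.24, and sites with a single sgRNA 0.33. The middle of the distribution was close to 0 in all of these sets. Its median was -0.01 for the 371 sites and -0.01 for the non-targeting groups of 3, and rescaling the libraries to the median of the non-targeting sgRNAs turned the sign of both, to 0.01. An LFC below -0.3 was seen at 20 sites (5.39%) and above 0.3 at 27 (7.28%), and at 22 (6.61%) and 17 (5.11%) of the non-targeting groups of 3.

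A site was called enriched in a population when the one-sided limma p was below 0.05 and its median LFC was beyond 0.58 in size. A single site was enriched in CXCR4- cells (0.270%), where the same rule called 1.29% of all 6360 sites and non-targeting groups. Likewise 1 site was enriched in CXCR4+ cells (0.270%), against 1.68% of all. Each of these shares lay below the background, most of which is sites with a single sgRNA. Their LFCs spread more widely than means over several sgRNAs, so they pass the limit of 0.58 more easily. Of the 333 non-targeting groups, 1 was called in each direction. After Benjamini-Hochberg adjustment over the 6360 features limma called no site, while 5 sites (1.35%) had a two-sided p below 0.05, against 3.73% of all features. Of these 5, 2 were lower, where 1.82% of all features were, and 3 were higher, where 1.9% were. That fit drew the spread of each feature towards 1 common value for features of like level, although a site with 1 sgRNA varies more than one with 3. In an alternative, the common value was set apart for sites with 1, 2 and at least 3 sgRNAs and no longer by level. Then 19 sites had a p below 0.05 (5.12%), against 3.69% of all features and 17 of the 333 non-targeting groups (5.11%). With the screen as a block, 6 sites had a p below 0.05, against 5.47% of all. Without screen 1 or without screen 3, 4 sites were called enriched in CXCR4+ cells, and without screen 1 the CXCR4- count was 0. These counts are not set against a share of all features.

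The site enriched in CXCR4- cells was 2bc14505_GAC_6, whose 3 sgRNAs were all called on their own. In the CXCR4- libraries of screens 1, 2 and 3, sgRNA 2bc14505_GAC_6.6 had 2902, 2686 and 868.3 normalized counts, and in the CXCR4+ libraries it had 1097, 1217 and 1117. For 2bc14505_GAC_6.7 the counts were 3591, 3978 and 1085 in CXCR4- cells, and 1042, 1367 and 976.8 in CXCR4+ cells. For 2bc14505_GAC_6.8 they were 3632, 2454 and 807.3, and 1296, 756.3 and 568.3. The CXCR4- libraries of screens 1 and 2 thus stood apart from the other 4 libraries for all 3 sgRNAs, while in screen 3 the CXCR4- library was within the range of the CXCR4+ libraries for 2 of them. The geometric mean over the sgRNAs was 3358, 2971 and 912.7 in CXCR4- cells against 1140, 1079 and 852.9 in CXCR4+ cells.

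The site LFC of 2bc14505_GAC_6 was -1.56, -1.46 and -0.10 in the 3 screens, with a median of -1.46 (SD 0.82, n = 3). The fitted change was -1.04 ± 0.36 (SE), with a limma p of 0.0124 and an adjusted p of 0.998. Its median was the lowest of the 371 sites by a wide margin, the next being -0.49 at 2bc31430_GAC_4. Without screen 1 the site, at an LFC of -0.78, no longer passed the one-sided limit, and without screen 3 the LFC was -1.51 and the adjusted limma p 0.0726. With the screen as a block, the limma p was 0.000749 and the adjusted p 0.866, and over all alternatives the adjusted p ranged from 0.0726 to 0.999.

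The site enriched in CXCR4+ cells was 2bc37642_GAC_2. For 2bc37642_GAC_2.4 the normalized counts in screens 1, 2 and 3 were 410.2, 319.7 and 233.4 in CXCR4- cells, and 431.1, 473.0 and 660.3 in CXCR4+ cells. Those of 2bc37642_GAC_2.5 were 256.8, 164.6 and 461.5, and 386.5, 345.5 and 634.0. Those of 2bc37642_GAC_2.6 were 997.5, 1286 and 737.7, and 1580, 1935 and 1406. Each sgRNA was higher in the CXCR4+ library than in the CXCR4- library of its own screen in all 3 screens, and the populations overlapped only for 2bc37642_GAC_2.5. The site LFC was 0.44, 0.74 and 0.96, with a median of 0.74 (SD 0.26, n = 3). The fitted change was 0.71 ± 0.29 (SE) with a limma p of 0.0277 and an adjusted p of 0.998, which ranged from 0.901 to 0.999 over the alternatives. Without screen 3 the site, at an LFC of 0.59, no longer passed the one-sided limit, and the call was lost too when the median over the sgRNAs took the place of their mean (LFC 0.52).

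The other 3 sites with a two-sided limma p below 0.05 did not reach the LFC of 0.58. 2bc27673.1_GAC_6 had site LFCs of 0.48, 1.14 and 0.42. Its sgRNAs had median LFCs from 0.20 to 1.05, the highest at 2bc27673.1_GAC_6.5, which was nevertheless at -0.27 in screen 3. Site 2bc26482_AAC_2 had LFCs of -0.40, -0.67 and -0.37, from median LFCs of -0.88 and -0.67 at 2bc26482_AAC_2.6 and 2bc26482_AAC_2.7 and of 0.15 at 2bc26482_AAC_2.8. Its first 2 sgRNAs were called enriched in CXCR4- cells on their own and the last was not. Site 2bc1857_GAC_4 had LFCs of 0.10, 0.44 and 0.73, and each of its sgRNAs had a positive median LFC, between 0.29 and 0.50. All 3 had an adjusted limma p of 0.998 over the 6360 features.

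Of single sgRNAs, 18 of 1162 were called enriched in CXCR4- cells (1.55%), where 1.74% of all 9044 sgRNAs tested were called. Another 24 were called enriched in CXCR4+ cells (2.07%), with 2.05% of all. Both shares were near the background, and non-targeting sgRNAs were called at 22 and 13 of 997. No sgRNA had an adjusted limma p below 0.05. The 24 sgRNAs enriched in CXCR4+ cells belonged to 24 different sites. Of the 18 enriched in CXCR4- cells, 13 were alone at their site, 2 belonged to 2bc26482_AAC_2 and 3 to 2bc14505_GAC_6. No site had called sgRNAs in both directions. Without screen 3 the counts were 42 (3.61%) and 70 (6.02%), where 3.69% and 4.46% of all sgRNAs and 4.11% and 3.31% of the non-targeting sgRNAs were called. The higher count thus stood above both shares in that setting, a difference that was not tested. Without screen 1 they were 33 (2.84%) and 36 (3.10%), where 2.68% and 3.25% of all were.

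At 37 of the 39 sites with a called sgRNA no other sgRNA was called, although the values of the others could be of like size, as at 2bc37642_GAC_2. They were not at 2bc2925_GAC_2. Its sgRNA 2bc2925_GAC_2.7 had 642.0, 1235 and 258.0 normalized counts in the CXCR4- libraries and 1769, 3189 and 722.0 in the CXCR4+ libraries of screens 1 to 3, which gave LFCs of 1.46, 1.37 and 1.48. The increase was of like size in every screen, although the levels overlapped between the populations because screen 2 ran higher in both. The neighbours 2bc2925_GAC_2.5 and 2bc2925_GAC_2.6 had median LFCs of 0.03 and -0.27. At 2bc12206_GAC_3, 2bc12206_GAC_3.6 was called with LFCs of 0.79, 0.80 and 0.69. Its neighbour 2bc12206_GAC_3.5 was as high in screens 1 and 2 (0.70 and 1.21) but at -0.69 in screen 3, and 2bc12206_GAC_3.4 had 0.08, 0.21 and 0.02. At 2bc2937_AAC_3, 2bc2937_AAC_3.5 was lower in CXCR4+ cells by LFCs of -0.66, -1.45 and -0.97, and the median LFCs of its neighbours were 0.12 and -0.17.

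Large values of a site in 1 screen came from few libraries. The highest site LFC of any screen, 1.60 in screen 2 at 2bc18909_AAC_7, rested on 2bc18909_AAC_7.5, which had 1.71 normalized counts in the CXCR4- library of screen 2 but between 221.9 and 290.2 in the other 5 libraries. The site's LFC was -0.11 in both other screens. At 2bc33045_AAC_2, with an LFC of -1.49 in screen 2 and of 0.16 and 0.07 in the others, 2bc33045_AAC_2.6 had 55.5 normalized counts in the CXCR4+ library of screen 2 and between 260.4 and 558.0 elsewhere. These sites were chosen after their values were seen. In screen 2 the SD over the 371 sites was 0.39, against 0.26 in both other screens, and it was 0.34, 0.28 and 0.24 in screens 2, 1 and 3 for the non-targeting groups of 3.

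Whether the sgRNAs of a site resembled each other was described by the intraclass correlation, the share of the variance of sgRNA LFCs that lies between sites. It was 0.00, -0.00 and -0.00 in H1 screens 1, 2 and 3, where 0 means that sgRNAs of a site are no more alike than any others. For the non-targeting groups of 3, which share no target, it was 0.07, 0.02 and -0.03. Of the median LFC over the 3 screens it was 0.04 for the sites, 0.08 for those with 3 sgRNAs, and 0.02 for the non-targeting groups. Without 2bc14505_GAC_6 the value over the other 370 sites was 0.00. All sgRNAs lay on the same side of the median of the library at 81 sites (21.8%), positive at 37 and negative at 44. Among sites with 3 sgRNAs this was 80 of 320 (25.0%), against 92 of the 333 non-targeting groups of 3 (27.6%).

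A stricter count asked for 1 sign at every sgRNA in every screen. It was met by 2bc37642_GAC_2 with positive values and by 2bc33631_GAC_1 with negative values, which is 2 of 320 sites with 3 sgRNAs (0.625%), while 6 of 333 non-targeting groups met it (1.80%). The site 2bc33631_GAC_1 had LFCs of -0.38, -0.77 and -0.15 and an adjusted limma p of 0.998. Its sgRNAs ranged from -0.08 to -0.54 in median LFC, and in screen 3 both 2bc33631_GAC_1.6 and 2bc33631_GAC_1.8 were at -0.00. No site was beyond 0.58 in the same direction in each of the 3 screens.

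The order of the sites did not carry over between screens. Across the 371 sites, Pearson's r was 0.07 between screens 1 and 2, 0.03 between 1 and 3 and -0.02 between 2 and 3. Without 2bc14505_GAC_6 the first of these was 0.01. For the 333 non-targeting groups the values were 0.13, 0.02 and 0.06. These are descriptions across sites whose points share their libraries. The site LFC kept its sign in all 3 screens at 90 of the 371 sites (24.3%), positive at 43 and negative at 47, and at 30.0% of the non-targeting groups of 3.

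In the A549 screen, more sites were lower than higher at day 30. The LFC over day 0, as a mean of both day 30 libraries, had a median of -0.05 over the 371 sites, with 216 below 0 (58.2%). The medians of sites with 1 and 2 sgRNAs were -0.00 and -0.00, and that of the 333 non-targeting groups of 3 was 0.00, with 166 below 0 (49.8%). Below -0.3 lay 53 sites (14.3%) and above 0.3 lay 20 (5.39%), whereas of the non-targeting groups 25 (7.51%) and 41 (12.3%) did. Of sites with 2 sgRNAs, 14.8% lay below -0.3 and 14.9% above 0.3, and of sites with 1 sgRNA 22.3% and 21.2%. The site LFC was negative in both day 30 libraries at 145 sites and positive in both at 92, against 110 and 116 of the non-targeting groups. This difference between sites and non-targeting groups was not tested. Rescaling the libraries to the same total or to the non-targeting median moved all sets downwards together, to -0.10 for the 371 sites and -0.05 for the non-targeting groups. The SD over the sites with 3 sgRNAs was 0.23, against 0.24 for the non-targeting groups of 3, and it was 0.31 and 0.41 for sites with 2 and 1 sgRNAs.

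The medians of the motifs lay apart at day 10 and together at day 30, a difference that was not tested. At day 10, the 92 AAC sites had medians of -0.07 and -0.06 in the 2 libraries, and the 279 GAC sites -0.01 and 0.01. At day 20 the medians were -0.04 and -0.06 for AAC sites and -0.01 and -0.00 for GAC sites. At day 30 they were close, at -0.05 and -0.04 for AAC and -0.05 and -0.03 for GAC. Among the other sites of the library the AAC medians at day 10 were 0.01 and 0.01. All of these values share the single day 0 library, and the SD over sites of a motif was between 0.14 and 0.15 at day 10.

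By the rule of a mean LFC beyond 0.58 in size at day 30, 7 sites were lower (1.89%), where 6.24% of all 6360 sites and non-targeting groups were. Only 1 was higher (0.270%), where 5.16% of all were. Both shares lay below the background, most of which is sites with a single sgRNA. Of the 333 non-targeting groups of 3, 2 were lower and 3 higher. No site was beyond 1. By limma, 11 sites had a two-sided p below 0.05 (2.96%), against 12.7% of all features, and no site passed after Benjamini-Hochberg adjustment. Of these 11, 6 were lower, where 5.35% of all features were, and 5 were higher, where 7.39% were. With the common value of the spread set by the number of sgRNAs and not by level, 44 sites (11.9%) had a p below 0.05. So did 45 of the 333 non-targeting groups (13.5%) and 13.1% of all. No site was beyond 0.58 in both day 30 libraries in the same direction, and 0 of the 333 non-targeting groups were in the lower direction and 3 in the higher. Day 0 had 1 library, so the fit took its spread from the later days.

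The 7 lower sites were 2bc39116.0_AAC_4 (-0.83), 2bc1226_GAC_2 (-0.74), 2bc33045_AAC_2 (-0.71), 2bc39856_GAC_1 (-0.65), 2bc38923_GAC_9 (-0.61), 2bc38098_GAC_1 (-0.61) and 2bc33141_AAC_3 (-0.59), where the value is the mean LFC at day 30. The next, 2bc10436_GAC_4, was at -0.57. They did not rest on the same library. The values of libraries 1 and 2 were -1.07 and -0.40 at 2bc1226_GAC_2, and -0.86 and -0.57 at 2bc33045_AAC_2, so that these were lowest in library 1. The other 5 were lowest in library 2, as at 2bc39116.0_AAC_4 with -0.39 and -1.27. Without library 1 of day 30, 12 sites were lower (3.23%) and 4 higher (1.08%), and 5 of the 7 were among the 12. Of the non-targeting groups of 3, 2.10% were lower and 2.10% higher in that setting, and of sites with 1 sgRNA 11.0% and 10.3%. Without library 2, 9 were lower and 6 higher, and 2 of the 7 were among the 9.

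The sites differed in how far their sgRNAs moved together. At 2bc39856_GAC_1, which had 4 sgRNAs, the geometric mean of the normalized counts started at 1219 at day 0. It was 1148 and 1155 in the libraries of day 10, then 1057 and 1020.4 by day 20, and 835.5 and 717.4 by day 30. Both libraries of each later day lay below those of the day before. Its sgRNAs had mean LFCs between -0.82 and -0.41 at day 30, and the adjusted limma p was 0.322. At 2bc33141_AAC_3, also with 4 sgRNAs, the geometric mean started at 1264. It had reached 905.0 and 997.1 by day 10, and was 931.2 and 884.2 by day 20, then 879.5 and 799.5 by day 30. Most of that decrease was thus present at day 10. Its sgRNAs lay between -0.89 and -0.41 with an adjusted limma p of 0.363. At 2bc38098_GAC_1 all 3 sgRNAs were lower too, between -0.87 and -0.37 with an adjusted limma p of 0.337.

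At the other 4 lower sites a single sgRNA had a mean LFC between -0.25 and 0.32. At 2bc1226_GAC_2, 2bc1226_GAC_2.7 had 1375 normalized counts at day 0 and 538.8 and 569.0 at day 30, and 2bc1226_GAC_2.8 had 571.3 and then 122.2 and 492.4. By contrast, 2bc1226_GAC_2.4 had 1166 at day 0 and 1496 and 1416 at day 30. The mean LFCs were thus -1.31, -1.21 and 0.32 within 1 site, and its adjusted limma p was 0.444. At 2bc33045_AAC_2 they were -0.91, -0.00 and -1.22, of which the second came from 0.39 and -0.40 in the 2 libraries (adjusted limma p 0.406). At 2bc38923_GAC_9 they were -1.23, -0.17 and -0.42, of which the second came from 0.50 and -0.85 in the 2 libraries (adjusted limma p 0.277). At 2bc39116.0_AAC_4, a site of low counts with a geometric mean of 641.9 at day 0, they were -1.25, -0.25 and -0.99 (adjusted limma p 0.494). The second of these came from 0.22 and -0.71 in the 2 libraries.

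The 1 higher site was 2bc21548_GAC_6, at which all 3 sgRNAs rose in both day 30 libraries. From day 0 to the day 30 libraries 1 and 2, 2bc21548_GAC_6.5 went from 2394 to 3945 and 3296 normalized counts. For 2bc21548_GAC_6.6 the counts were 1738, 3012 and 2942, and for 2bc21548_GAC_6.7 they were 1742, 3313 and 2223. All 6 values at day 30 were above those at day 0 of the same sgRNA. The geometric mean over the site started at 1935, was 2433 and 2406 by day 10 and 2500.2 and 2458 by day 20, and ended at 3402 and 2783. The site LFC at day 30 was 0.81 and 0.52 (mean 0.67, SD 0.20, n = 2), with a limma p of 0.00476 and an adjusted p of 0.230. Its sgRNAs lay between 0.59 and 0.78. Over the alternatives the adjusted limma p ranged from 0.0675 to 0.261. Using day 30 library 2 alone brought the LFC to 0.52, below the limit. Site 2bc34169_GAC_11, with 4 sgRNAs between 0.43 and 0.73, followed with a mean LFC of 0.56, made of 0.26 and 0.86 in the libraries.

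Among single sgRNAs in A549, 22 of 1169 had a mean LFC below -1 (1.88%), against 1.52% of all 9077. Above 1 were 8 (0.684%), against 0.705% of all. By limma, 1 of all 9077 sgRNAs had an adjusted p below 0.05 (0.011%), and it was not at these sites. Non-targeting sgRNAs gave 10 of 1000 in each direction. The 22 lower sgRNAs fell at 21 sites, with 2 of them at 2bc1226_GAC_2, and the 8 higher ones at 8 sites. Without library 1 of day 30 the counts were 38 (3.25%) and 12 (1.03%), where 2.92% and 1.63% of all sgRNAs were. Without library 2 they were 39 (3.34%) and 17 (1.45%), where 3.05% and 1.64% of all were. None of the called sites had an sgRNA beyond 1 in each direction. The higher sgRNAs included 2bc18843_GAC_2.5 with a mean LFC of 1.32, next to which 2bc18843_GAC_2.4 and 2bc18843_GAC_2.6 were at 0.22 and -0.11.

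The intraclass correlation of the sgRNA LFCs was -0.04 and 0.02 in the 2 day 30 libraries, and 0.03 and 0.04 for the non-targeting groups. At days 10 and 20 it lay between -0.03 and -0.02 for the sites. All sgRNAs were on the same side of the median at 80 sites (21.6%), negative at 50 and positive at 30. Among sites with 3 sgRNAs this was 71 of 320 (22.2%), against 93 of 333 non-targeting groups of 3 (27.9%). All sgRNAs had 1 sign in both day 30 libraries at 18 of the 320 sites (5.62%) and at 27 of the 333 groups (8.11%).

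The sites with the most sgRNAs, 5 each, carried the numbers 4 to 8 and the motif GAC. In H1 their median LFCs were 0.01 at 2bc2069_GAC_1, -0.22 at 2bc2804_GAC_4, 0.23 at 2bc38046.1_GAC_5, -0.11 at 2bc394_GAC_1 and 0.06 at 2bc6746_GAC_3. Each had an adjusted limma p of 0.998, and the sign of all but 2bc38046.1_GAC_5 turned under at least 1 alternative. Single sgRNAs within them ranged further, from -0.41 to 0.95 at 2bc38046.1_GAC_5 and from -0.52 to 1.17 at 2bc2069_GAC_1. 2bc38046.1_GAC_5.8 was called enriched in CXCR4+ cells, with LFCs of 0.95, 0.54 and 0.97. In A549 its mean LFC was -0.95, whereas the other 4 sgRNAs of the site were between -0.38 and 0.01. The site means in A549 were -0.04, 0.04, -0.32, 0.25 and -0.09 in the order above, and the smallest adjusted limma p was 0.492.

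No site was called in both screens. The site LFCs of H1 and A549 had a Pearson's r of 0.06 across the 371 sites, and of 0.06 across the non-targeting groups of 3. The editors differed between the screens, so the same sgRNA need not have made the same change in both. At 2bc14505_GAC_6 the A549 LFC was -0.55 and -0.37 in the day 30 libraries (adjusted limma p 0.406). At 2bc37642_GAC_2, enriched in CXCR4+ cells, all 3 sgRNAs were slightly lower in A549, with mean LFCs between -0.30 and -0.20. At 2bc38923_GAC_9, lower in A549, the H1 LFCs were 0.54, 0.45 and 0.24 (adjusted limma p 0.998). Beyond 0.3 in both screens were 3 sites lower in both, 2 higher in both, 4 higher in H1 and lower in A549, and 0 the other way.

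Other features of the IDs did not separate the sites. The mean LFC of the sgRNAs by their last number, 4 to 8, was between -0.02 and 0.02 in H1 and between -0.09 and -0.03 in A549, with SDs of 0.33 to 0.35 and 0.39 to 0.44. In 11 cases, 2 of the sites shared the first part of their ID. The members of such a pair had LFCs of the same sign in 6 of 11 pairs in H1 and in 4 of 11 in A549. One of these pairs held 2bc21548_GAC_6, which was at 0.67 in A549, while 2bc21548_AAC_2 was at -0.16.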

How the data were processed

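Sequencing of the sgRNA cassette gave 7 A549 libraries and 6 sorted H1 libraries. An H1 day 0 sample was not analysed here. The values deposited by the authors are a signal, namely sgRNA read counts normalized between libraries with MAGeCK, and every value was a whole multiple of 1 step per library (100% within 0.05 reads), from which reads per library were inferred by taking that step as 1 read. The submitters' processing notes name CASAVA 1.4, cutadapt and MAGeCK, of which only the first has a version in the sources used here. Intervals and tests do not separate PCR copies from molecules.

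The sites, comparisons and lists were chosen with earlier results of these data known. Site values were means over sgRNAs of log2(value + 1), which draws changes of low counts towards 0. Such changes could still be large, as with the LFC of 6.36 at 2bc18909_AAC_7.5 in H1 screen 2. limma 3.58.1 (R 4.3.3; lmFit, eBayes with trend) was fitted to 6360 features (6027 site IDs and 333 non-targeting groups), or to 9044 (H1) or 9077 (A549) sgRNAs, with Benjamini-Hochberg adjustment over all. Tables were handled with Python 3.11.15, numpy 2.4.6 and pandas 2.3.3. The scripts were tested on simulated data. In H1, sgRNAs with a mean below 200 in either population were left out of sgRNA tests. A site call in A549 used only the mean LFC of the 2 day 30 libraries. The sites named were the 8 of smallest one-sided p per direction in H1 with 1 sign in all 3 screens, the 8 of largest mean LFC per direction in A549 with 1 sign in both day 30 libraries, sites with 5 sgRNAs, and sites called in both screens or at every sgRNA. The neighbours just outside a limit were named after their values were seen.

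In H1 the populations of a screen came from 1 infected culture, which pairs them. The deviations of their site values from the group means correlated at 0.08, 0.07 and 0.28 in screens 1, 2 and 3, and those of different screens at -0.18 to 0.10, with every negative value between screen 3 and another. For the A549 expansion the paper gives 2 independent samples, but whether a replicate number follows 1 culture over the days is not stated. The main A549 fit took libraries of different days as independent, so p-values there measure only the spread between libraries. Alternatives changed the pseudocount, filter, scaling, summary over sgRNAs or screens, variance model, block and libraries used. The non-targeting groups were a single fixed grouping.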

Additional observations from a re-analysis of the deposited data

How the results depend on the processing

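The pseudocount (0.5 or 10) and the low-count filter left every count within 1.5 times its value, and 0 sites passed adjustment by limma under any alternative. Leaving out 1 H1 screen gave 0 to 1 sites enriched in CXCR4- cells, 1 to 4 in CXCR4+ cells, 0 to 4 sites with p below 0.05, 25 to 42 sgRNAs enriched in CXCR4- cells and 25 to 70 in CXCR4+ cells. Leaving out 1 day 30 library in A549 gave 9 to 12 sites lower, 4 to 6 higher, 29 to 35 with p below 0.05, and 38 to 39 sgRNAs lower and 12 to 17 higher. The median over the sgRNAs of a site gave 2 sites enriched in CXCR4- cells, 2 in CXCR4+ cells, and in A549 13 lower, 10 higher and 20 with p below 0.05. The mean over screens gave 2 sites enriched in CXCR4+ cells. Rescaling to the same total or to the non-targeting median gave 5 sgRNAs higher in A549. limma without a trend gave 17 A549 sites with p below 0.05. Setting the common value of the spread by the number of sgRNAs and not by level gave 44 in A549 and 19 in H1. The causes were not tested.

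With the replicate number as a block, 29 A549 sites had p below 0.05 (7.82%), against 23.2% of all features, and 0 passed adjustment. The differences between replicates 1 and 2 correlated at 0.57 for day 10 against day 20, at 0.64 for day 20 against day 30 and at 0.39 for day 10 against day 30. In H1 the block gave 6 sites with p below 0.05 and changed no site call count. Of the 210 H1 values of named sites under the alternatives, 7 newly passed a limit, 3 no longer passed and 6 turned their sign. Those 6 were all values of uncalled sites with 5 sgRNAs. With the median over sgRNAs they were -0.034 at 2bc2069_GAC_1, 0.071 at 2bc2804_GAC_4 and -0.069 at 2bc6746_GAC_3. With 1 screen left out, the values ranged from -0.23 to 0.29 at 2bc2069_GAC_1, from -0.28 to 0.019 at 2bc2804_GAC_4 and from -0.47 to 0.21 at 2bc394_GAC_1. Of the 168 A549 values, 5 turned too, at 3 such sites, all uncalled and within 0.1 of 0. Of the 7 lower A549 sites, 5 kept their call without day 30 library 1. Without library 2, 2 of them did, and 5 did with the median over sgRNAs. The 1 higher A549 site lost its call without library 1. Other named sites newly passed in A549, such as 2bc10436_GAC_4 under both rescalings. edgeR was not run. The values were normalized counts, and reads were only inferred from the step of each library. The spread of A549 day 0 is unknown, since it had 1 library.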
